A study of Mus musculus with 4 samples.

Results

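The 10 genes described here mark the endothelial cells that line the liver sinusoids: Stab1, Stab2, Lyve1, Clec4g, Kdr, Pecam1, Ehd3, Dnase1l3, Oit3 and Cdh5. They were taken by symbol from the 24346 gene symbols of the deposited tables, and all 10 were present with values above 0 in every library. Their levels were compared in the liver of male ob/ob mice, which lack leptin and become obese and diabetic. The mice were 6 weeks old when the diets began, ate them for 4 weeks, and received 1% cholesterol in every diet. The groups were chow diet (CD), chow diet with 0.01% 7-ketocholesterol (CD+7KC), western type diet high in fat (WD), and western type diet with 0.01% 7-ketocholesterol (WD+7KC). 7-Ketocholesterol (7KC) is an oxidation product of cholesterol. All groups shared the ob/ob genotype, so that no lean control entered the comparisons. Each group had 1 library of whole liver RNA, and the number of mice behind a library is not given in the sources used here. Therefore no difference has a replicate check, no p-value is given, and the variation between mice is unknown.

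Sinusoidal endothelial cells form a fenestrated wall without a closed basement membrane, through which plasma reaches the hepatocytes. They are known as scavenger cells of the liver, since they clear hyaluronan, modified proteins and small immune complexes from blood by receptors such as stabilin-1, stabilin-2 and Fc receptors. Like other endothelium they carry VEGF receptors and junction proteins, whereas under chronic injury they are known to lose fenestrae and sinusoidal markers and to gain features of continuous capillaries. In RNA from whole liver, fewer cells of a type and less RNA per cell cannot be told apart.

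The values are FPKM, read fragments scaled to transcript length and to library size, so levels can be compared between genes per unit of length. From the steps between low FPKM values, about 9440000 mapped fragments were estimated for WD, 11000000 each for CD and CD+7KC and 12100000 for WD+7KC. The members rested on 113 to 1092 estimated reads in a library. Both ends belong to genes whose transcript length is less certain, Kdr in WD and Dnase1l3 in WD+7KC. Over the 6 members given a counting interval, the range was 128 to 807. FPKM values summed to 602059 in WD+7KC and to 696062 to 715605 in the other libraries. Rescaling to equal sums therefore raised the log2 change of a gene in WD+7KC relative to WD by about 0.22. The share of all genes higher or above 1 after this rescaling was not counted. Counts given below with equal sums are therefore not results about the lists. Log2 fold changes are log2 ratios of FPKM + 0.1. The exact (Clopper-Pearson) 95% intervals given for 6 members belong to the ratio of FPKM without this pseudocount, and they cover counting error only.

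The sequence before the transcription start is shown for 4 of the 10 genes, and its part in their levels was not tested. The reference promoter table of RefSeq (GRCm38.p6) held Stab1, Stab2, Clec4g, Kdr and Ehd3. The genes Lyve1, Pecam1, Dnase1l3, Oit3 and Cdh5 had no entry. Shown are the 250 bases before the start, 5′ to 3′ in the direction of transcription, for the related scavenger receptors Stab1 and Stab2, for Clec4g with the highest level and for Kdr with the largest difference between WD+7KC and WD. Capitals mark AGGAAG, a core form of the site bound by ETS factors such as the endothelial factor ERG, or its reverse complement CTTCCT.
Stab1, chr14:31168642-31168891, minus strand: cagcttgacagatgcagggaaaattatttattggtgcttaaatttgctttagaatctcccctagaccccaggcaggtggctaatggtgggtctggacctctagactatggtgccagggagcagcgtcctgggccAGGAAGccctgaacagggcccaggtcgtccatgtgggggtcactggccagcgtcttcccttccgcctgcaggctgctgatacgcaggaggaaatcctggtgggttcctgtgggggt
Stab2, chr10:87007943-87008192, minus strand: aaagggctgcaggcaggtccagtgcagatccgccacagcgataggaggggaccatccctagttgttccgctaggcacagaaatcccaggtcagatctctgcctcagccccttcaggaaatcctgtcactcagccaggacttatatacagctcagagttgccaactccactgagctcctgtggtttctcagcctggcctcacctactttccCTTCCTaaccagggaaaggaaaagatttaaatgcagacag
Clec4g, chr8:3720652-3720901, minus strand: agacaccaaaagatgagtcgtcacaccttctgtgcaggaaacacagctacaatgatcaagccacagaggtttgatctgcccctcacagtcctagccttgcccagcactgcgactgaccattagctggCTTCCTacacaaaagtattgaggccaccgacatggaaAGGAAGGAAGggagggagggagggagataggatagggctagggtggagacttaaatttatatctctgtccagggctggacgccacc
Kdr, chr5:75978456-75978705, minus strand: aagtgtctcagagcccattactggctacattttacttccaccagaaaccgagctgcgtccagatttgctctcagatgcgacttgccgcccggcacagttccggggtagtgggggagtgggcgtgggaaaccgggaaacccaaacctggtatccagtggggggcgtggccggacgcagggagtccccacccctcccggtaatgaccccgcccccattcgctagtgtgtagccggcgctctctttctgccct
AGGAAG was present on either strand in the window of 3 of the 5 genes, compared to 29.5% of 32851 promoter windows of the same length. The match began 116 bases before the start in Stab1 and 40 bases before it in Stab2. In Clec4g it began 123, 86 and 82 bases before the start, and the last 2 matches overlap. Kdr and Ehd3 had no match in these 250 bases. AGATAA, a core form bound by GATA factors, was searched on both strands as well and was found in 0 of the 5 windows and in 9.99% of all windows. These letters describe the windows and say nothing of whether a factor was bound.

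All 10 genes were highest in WD+7KC. Among the 10686 genes that averaged at least 1 FPKM, 25.8% were highest in WD+7KC. CD+7KC came next except in Lyve1, and WD was lowest except in Stab2, Ehd3 and Dnase1l3. How many of all genes had these orders was not counted. The sum over the 10 genes was 81.3 FPKM for CD, 120 for CD+7KC, 69.6 for WD and 185 for WD+7KC.

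**Figure D1:**
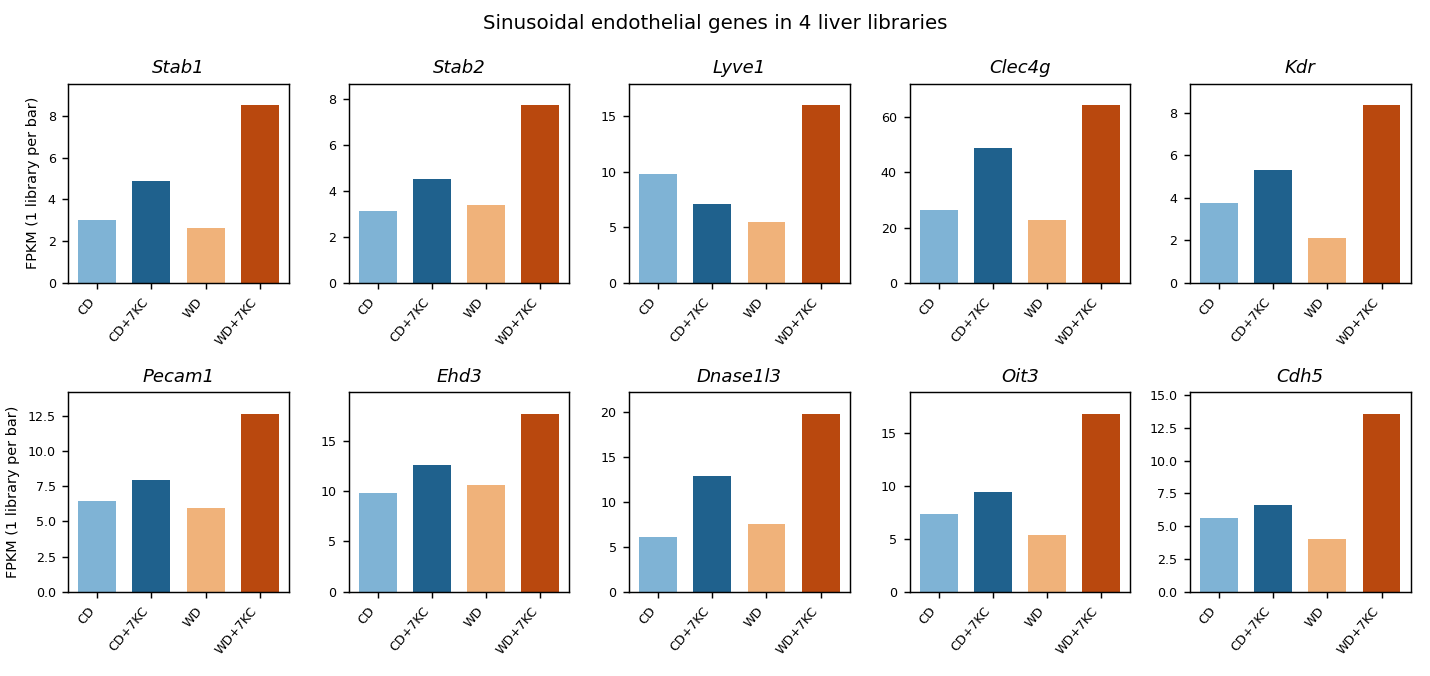
FPKM of each of the 10 sinusoidal endothelial genes, with 1 bar per library (CD, CD+7KC, WD, WD+7KC) and a separate linear axis from 0 for each gene; there are no error bars because each group had 1 library. In every panel the WD+7KC bar is the tallest, from 7.73 FPKM in Stab2 to 64.2 FPKM in Clec4g.

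The scavenger and lectin receptors were examined first. Clec4g (chromosome 8, 3707064 to 3720651, GRCm38), which encodes the C-type lectin LSECtin, was at 26.3 FPKM for CD, 48.7 for CD+7KC, 22.6 for WD and 64.2 for WD+7KC. It had the highest level of the 10 genes per length in each library, and the libraries with 7KC were above both libraries without it. Stab1 (chromosome 14, 31139013 to 31168641), which encodes the scavenger receptor stabilin-1 and is also expressed by some macrophages, was at 3.02 FPKM for CD, 4.87 for CD+7KC, 2.61 for WD and 8.52 for WD+7KC. Stab2 (chromosome 10, 86841198 to 87008025), whose product stabilin-2 is the main receptor for the clearance of hyaluronan, was at 3.12 FPKM for CD, 4.53 for CD+7KC, 3.38 for WD and 7.73 for WD+7KC. The stabilins thus had similar levels per length in all libraries, and both were higher with 7KC under either diet. Lyve1 (chromosome 7, 110850607 to 110863239), a hyaluronan receptor of sinusoidal and lymphatic endothelium, was at 9.82 FPKM for CD, 7.11 for CD+7KC, 5.49 for WD and 16 for WD+7KC. It was the only member that was lower in CD+7KC than in CD.

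Kdr, Pecam1 and Cdh5 are shared by most endothelium. Kdr (chromosome 5, 75932827 to 75978458), which encodes VEGFR2, the main signalling receptor for VEGF-A, was at 3.73 FPKM for CD, 5.29 for CD+7KC, 2.09 for WD and 8.36 for WD+7KC. The WD value of Kdr was the lowest value of any member in any library. Cdh5 (chromosome 8, 104101625 to 104144511), which encodes the junction protein VE-cadherin, was at 5.59 FPKM for CD, 6.60 for CD+7KC, 3.99 for WD and 13.6 for WD+7KC. Pecam1 (chromosome 11, 106654217 to 106750628), which encodes CD31 and is also found on platelets and leukocytes, was at 6.46 FPKM for CD, 7.92 for CD+7KC, 5.98 for WD and 12.7 for WD+7KC. In Cdh5 the WD+7KC library stood 2.06-fold above the next library, the widest gap of the 10 genes, and in Pecam1 1.60-fold.

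The other members act in membrane traffic or are secreted. Ehd3 (chromosome 17, 73804134 to 73832094), which encodes an EH domain protein of endosomal recycling, was at 9.79 FPKM for CD, 12.6 for CD+7KC, 10.6 for WD and 17.7 for WD+7KC. Its highest library was 1.81-fold above its lowest, the narrowest range of the 10 genes, compared to 4.00-fold in Kdr. Dnase1l3 (chromosome 14, 7964533 to 7994573), which encodes a secreted nuclease that digests the DNA of chromatin, was at 6.12 FPKM for CD, 12.9 for CD+7KC, 7.48 for WD and 19.8 for WD+7KC. Oit3 (chromosome 10, 59422958 to 59441778), which encodes a zona pellucida domain protein found in liver, was at 7.33 FPKM for CD, 9.36 for CD+7KC, 5.38 for WD and 16.8 for WD+7KC. Dnase1l3 was 2.10-fold higher with 7KC under chow diet and 2.64-fold under the western type diet, whereas Oit3 was 1.28-fold and 3.12-fold higher.

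The question whether 7KC added to the western type diet went with a change of sinusoidal genes was then examined. In WD+7KC compared to WD, 10 of 10 members were higher, and 9 of 10 had a log2 fold change above 1. Of 15753 genes above 0 FPKM in either library, 50.2% were higher, 6.21% were above 1 and 2.79% below -1. Of the 11059 genes that reached 1 FPKM in either of them, 3.74% were above 1. The median log2 fold change of the members was 1.52, beside 0.002 over all genes. After rescaling to equal sums it was 1.74, beside 0.21 over all genes. Kdr had the largest change at 1.95, from 2.09 to 8.36 FPKM. It was followed by Cdh5 at 1.74, with a counting interval of 1.5 to 2.04, and by Stab1 at 1.67, with an interval of 1.48 to 1.94. Oit3 had 1.62 (1.36 to 1.93), Lyve1 1.53 (1.27 to 1.82) and Stab2 1.17 (0.99 to 1.41). For the members without an interval, Clec4g had 1.5, Dnase1l3 1.39 and Pecam1 1.07. Ehd3 had the smallest change at 0.73 (0.55 to 0.93), the only value below 1. None of the 6 counting intervals included 0, and the interval of Ehd3 lay below those of the other 5 genes.

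When 7KC was added to the chow diet, 9 of 10 members were higher in CD+7KC than in CD, with a median log2 fold change of 0.43. Over all 15684 genes above 0 FPKM in either library 49.3% were higher, with a median of -0.001. A log2 fold change above 1 was found in 1 of 10 members, Dnase1l3 at 1.06, and in 3.84% of all genes, while no member and 2.91% of all genes were below -1. Clec4g had 0.89 and Kdr 0.49. Stab1 had 0.67, with a counting interval of 0.46 to 0.92, and Stab2 0.53 (0.31 to 0.77). For Ehd3 the value was 0.36 (0.17 to 0.57), for Oit3 0.35 (0.08 to 0.62) and for Pecam1 0.29. For Cdh5, at 0.24 (-0.02 to 0.50), the depth did not allow a difference to be seen. Lyve1 had -0.46, with an interval of -0.73 to -0.20. Of the scavenger and lectin receptors, Clec4g, Stab1 and Stab2 were thus higher with 7KC under chow diet and Lyve1 was lower.

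**Figure D2:**
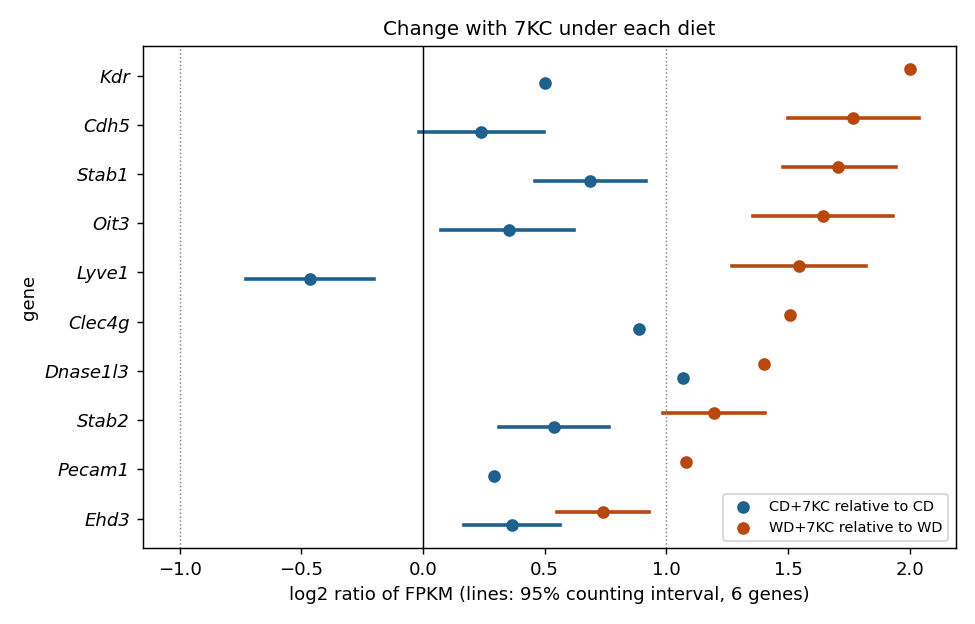
Log2 ratio of FPKM with 7KC to without it for each gene, in blue for the chow diet and in orange for the western type diet, with horizontal lines for the 95% counting interval of 6 genes and dotted lines at 1 and -1. Each orange point lies to the right of the blue point of the same gene, and Lyve1 under chow diet is the only point left of 0.

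The log2 fold change with 7KC was larger under WD than under CD for 10 of 10 members, with a median difference of 0.89. Among the 10686 genes named above, 47.2% had a larger change under WD, and their median difference was -0.02. The difference was 1.99 for Lyve1, 1.51 for Cdh5, 1.46 for Kdr and 1.28 for Oit3. It was smallest for Ehd3 at 0.37 and for Dnase1l3 at 0.33. No test of these differences was possible with 1 library per group. The WD library takes part in this difference, and its own position is given next.

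The western type diet was compared to chow diet without and with 7KC. Without 7KC, 7 of 10 members were lower in WD than in CD, with a median log2 fold change of -0.21, while 49.0% of 15597 genes were lower. No member passed 1 or -1, compared to 5.31% of all genes above 1 and 4.38% below -1. Lyve1 had -0.83, with a counting interval of -1.13 to -0.54, and Kdr had -0.81. Cdh5 had -0.48 (-0.80 to -0.18) and Oit3 -0.44 (-0.78 to -0.12). The intervals of Stab1 at -0.20 (-0.49 to 0.06), Stab2 at 0.11 (-0.14 to 0.37) and Ehd3 at 0.11 (-0.10 to 0.33) included 0, so the depth did not resolve a difference. Lyve1, Cdh5 and Oit3 were hence the members whose interval lay below 0. With 7KC in both diets, 10 of 10 members were higher in WD+7KC than in CD+7KC, and the median log2 fold change was 0.71, while 50.2% of 15898 genes were higher. A log2 fold change above 1 was found in 2 of 10 members, Lyve1 at 1.16 (0.94 to 1.41) and Cdh5 at 1.03 (0.83 to 1.25), and in 8.01% of all genes. Clec4g had the smallest change at 0.40. The WD+7KC library takes part in this comparison and in that with WD, and CD+7KC in this comparison and in that with CD, so these values are not independent of those given above.

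Other genes of sinusoidal endothelium were then examined, none of them a member. Some genes stand on more than 1 of the lists that follow: Flt4, Flt1, Esam and Ptprb. In WD+7KC compared to WD, 12 of 12 were higher and 9 of 12 were above 1, with a median log2 fold change of 1.51. Under chow diet 10 of 12 were higher with 7KC and 2 of 12 above 1, with a median of 0.59. The largest change under both diets was that of Wnt2, a Wnt ligand of pericentral endothelium, at 0.24 FPKM for CD, 1.52 for CD+7KC, 0.39 for WD and 2.23 for WD+7KC. The difference with 7KC on the log2 scale was 2.26 under either diet. The smallest under WD was that of Gata4, a transcription factor that sets sinusoidal identity, at 0.72, and under CD that of Fam167b at -0.62. Mrc1 and Fcgr2b of this list are also expressed by macrophages.

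Of 16 genes shared by the endothelium of most vessels, 15 were higher in WD+7KC than in WD and 12 were above 1, with a median log2 fold change of 1.41. Under chow diet 15 of 16 were higher with 7KC and 0 were above 1, with a median of 0.29. Sox18, an endothelial transcription factor, had the largest value under WD at 1.80, from 1.79 to 6.50 FPKM. Erg had the smallest at -0.01, with 3.85 FPKM for WD and 3.82 for WD+7KC. It was positive after rescaling to equal sums, when 16 of 16 genes were higher and the median of all genes was 0.21. Under CD the values ran from -0.13 for Ecscr to 0.84 for Icam2. In WD compared to CD 13 of the 16 genes were lower, with a median of -0.35.

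Of 12 genes of large vessels and continuous capillaries, 12 were higher in WD+7KC than in WD and 5 were above 1, and their median change was 0.96. Ly6c1 had the largest value at 2.71, from 0.16 to 1.62 FPKM, and Plvap, a component of fenestral diaphragms, the smallest at 0.35, from 36.9 to 47.0 FPKM. The WD value of Ly6c1 lies near the pseudocount of 0.1, so its change rests on few reads. After rescaling to equal sums 9 of the 12 were above 1 in WD+7KC compared to WD, with a median of 1.21 beside 0.21 over all genes. Under chow diet the median of this list was 0.10, with 7 higher, 5 lower and 1 below -1. Over the 7 genes that reached 1 FPKM the values ran from Ly6a at 0.46 to the adhesion molecule Selp at -0.92.

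**Figure D3:**
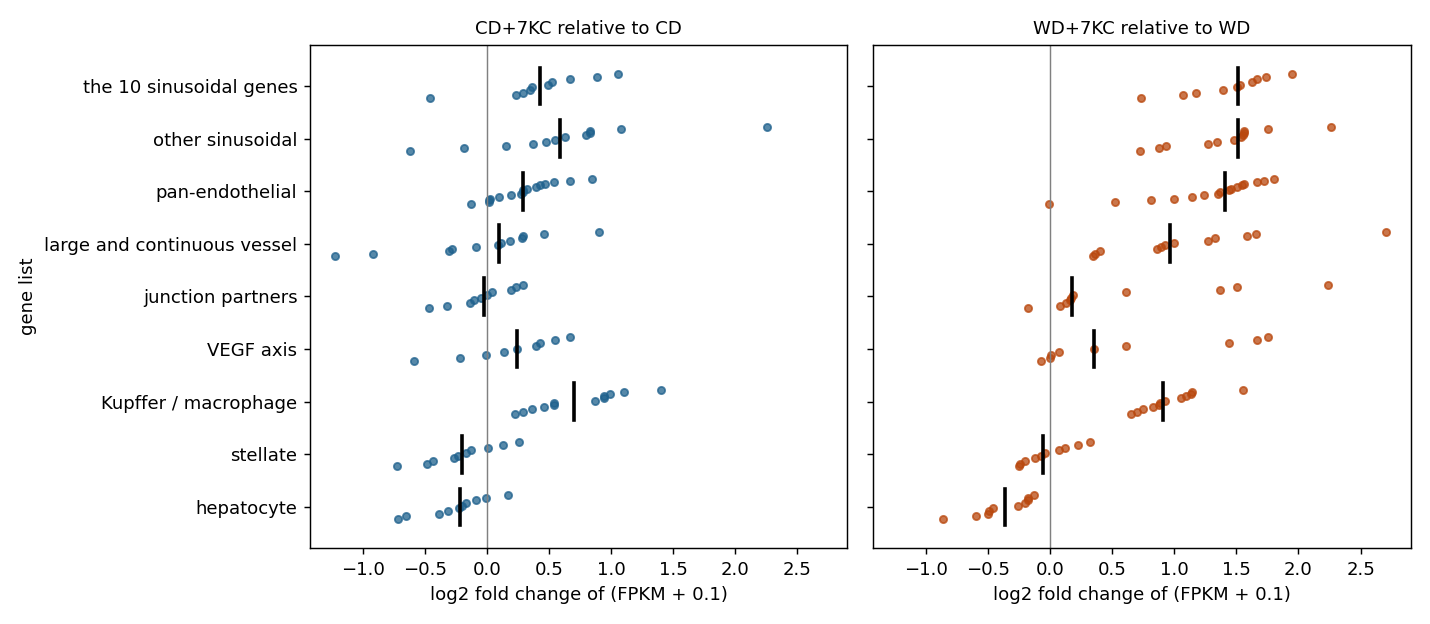
Log2 fold change of FPKM + 0.1 for each gene (points) of the 10 sinusoidal genes and of 8 other lists, with the median as a black bar (left, CD+7KC relative to CD; right, WD+7KC relative to WD). On the right the sinusoidal and pan-endothelial lists centre on 1.41 to 1.52, the Kupffer list on 0.91, and the stellate and hepatocyte lists on -0.06 and -0.36 (0.15 and -0.14 after rescaling to equal sums).

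The partners of these proteins differed among themselves. Of the VEGF ligands, Vegfa was at 16 FPKM for both WD and WD+7KC, and at 21.7 FPKM for CD and 23.9 for CD+7KC. Vegfb, Vegfc and Pgf had log2 fold changes of 0.01, -0.07 and 0.35 in WD+7KC compared to WD. The value of Vegfc turned positive with equal sums, when all 9 genes of this list were higher and the median of all genes was 0.21. Pgf stayed between 0.09 and 0.19 FPKM in the 4 libraries, near the pseudocount of 0.1, so its changes rest on few reads. Vegfd, listed under its older symbol Figf, was at 0.12 FPKM for WD, likewise near the pseudocount, and at 0.61 for WD+7KC. The receptors beside Kdr had larger values, 1.75 for Flt4 (VEGFR3) and 1.44 for Flt1 (VEGFR1), and the co-receptors Nrp2 and Nrp1 had 0.61 and 0.07. Over the 9 genes of the axis without Kdr, 3 were above 1 and 0 below -1, with a median of 0.35. Under chow diet 0 of the 9 passed 1 or -1, with values from -0.59 for Nrp1 to 0.67 for Pgf.

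Of the genes that make, cut or bind hyaluronan, the ligand of Stab2 and Lyve1, 1 of 6 measured genes was above 1 in WD+7KC compared to WD. This was Tmem2 (now Cemip2), a cell surface hyaluronidase, from 2.10 to 4.65 FPKM. The receptor Cd44 was at 3.66 FPKM for WD and 7.10 for WD+7KC, which is 0.94 on the log2 scale. The hyaluronidases Hyal1 and Hyal2 had -0.19 and 0.15. All 6 genes were higher after rescaling to equal sums, when the median of all genes was 0.21. The synthases Has1 and Has2 were listed at 0 in all 4 libraries, and Has3 was at no more than 0.04 FPKM in any of them. Under chow diet Hmmr, which also serves the mitotic spindle, was above 1 at 1.18, from 0.61 to 1.51 FPKM.

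Of 10 junction genes examined beside Cdh5, 3 were above 1 in WD+7KC compared to WD. The adhesion molecule gene Jam2 had a log2 fold change of 2.24, from 1.71 to 8.44 FPKM, Esam had 1.51 and the phosphatase Ptprb 1.37. The catenins, which bind cadherins in all epithelia, had 0.08 for Ctnnb1, 0.16 for Ctnna1, 0.13 for Ctnnd1 and 0.17 for Jup. For Tjp1 the value was 0.61, for F11r 0.19 and for Jam3 -0.18, which turned positive with equal sums. Under chow diet 0 of 10 passed 1 or -1, with values from -0.47 for Jam3 to 0.29 for Esam. The family relatives of Ehd3 and Dnase1l3 were not above 1 under WD: Ehd1, Ehd2 and Ehd4 had 0.002, -0.27 and 0.39, and Dnase1, Dnase1l1 and Dnase1l2 had -0.09, -0.02 and -0.17. With equal sums 4 of these 6 relatives were higher and 2 lower. Under CD, Dnase1l2 was at 0 FPKM for CD and 0.26 for CD+7KC, and the other 5 lay between -0.78 for Ehd2 and 0.44 for Dnase1l1.

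Markers of other liver cells were compared beside these results. Of 12 Kupffer cell and macrophage markers, 12 were higher in WD+7KC than in WD and 5 were above 1, the median change was 0.91, and values ran from Marco at 0.65 to Adgre1 (F4/80) at 1.55. Under chow diet 12 of 12 were higher with 7KC, with a median of 0.70 and 2 above 1, from Lyz2 at 0.23 to Folr2 at 1.40. Their summed level was 234 FPKM for CD, 358 for CD+7KC, 404 for WD and 760 for WD+7KC, with no marker at 0. This list therefore moved with the members in both comparisons of 7KC, and its part in their change was not tested. Between WD and CD without 7KC it went the other way from most members, with 12 of 12 markers higher and a median of 0.82.

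Of 10 stellate cell markers, 4 were higher in WD+7KC than in WD, the median was -0.06 on the log2 scale, and values ran from Des at -0.25 to Rgs5 at 0.32. After rescaling to equal sums this direction flipped, with 8 of 10 higher and a median of 0.15, beside 0.21 over all genes. Under chow diet 3 of 10 were higher with 7KC, with a median of -0.20, from Des at -0.72 to Rgs5 at 0.26. Their summed level was 252 FPKM for CD, 226 for CD+7KC, 265 for WD and 258 for WD+7KC, and none was at 0. Of 10 hepatocyte markers 0 were higher in WD+7KC than in WD, the median was -0.36, and values ran from Cyp2e1 at -0.86 to Cps1 at -0.13. After rescaling to equal sums 4 of 10 were higher, with a median of -0.14. Under chow diet 1 of 10 was higher with 7KC, with a median of -0.21, from Apoa1 at -0.71 to Tat at 0.17. The hepatocyte genes summed to 88900 FPKM for CD, 79300 for CD+7KC, 83100 for WD and 63100 for WD+7KC, so that the libraries were those of liver in which hepatocyte RNA prevailed. The part of these shifts in the change of the members was not tested. Bile duct markers had a median of 0.29 over 7 genes under WD and -0.41 over 8 under CD, with Spp1 at 0.56 and -1.17, and their sums were 107, 51.1, 132 and 191 FPKM. Spp1 alone was at 98.7, 43.7, 124 and 183 FPKM in the same order, so these sums mostly reflect that gene. Of 10 lymphocyte markers, 0 were above 1 in WD+7KC compared to WD and 6 under chow diet, with sums of only 2.15, 5.2, 8.43 and 6.75 FPKM and values that rest on few reads. Under chow diet 7 of the 10 were higher and 3 lower. Of the lymphocyte genes that reached 1 FPKM, the extremes were Cd79b at 0.58 and Cd3g at -1.66 among 3 genes under WD, and Cd79b at 1.56 and Cd79a at 1.05 as the 2 genes under CD. Red blood cell transcripts summed to 176, 136, 191 and 104 FPKM, and the globin genes among them share near-identical copies, so their separate values are uncertain. Among those that reached 1 FPKM, Hba-a1 had the smallest value under both diets, -1.06 under WD and -0.72 under CD, and the largest were Hbb-bs at -0.37 under WD and Alas2 at -0.09 under CD.

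To set the members against other endothelial genes without any scaling between libraries, ratios were formed within each library. The mean log2 (FPKM + 0.1) of the 10 members minus that of the 16 pan-endothelial genes was 0.96 for CD, 1.10 for CD+7KC, 0.98 for WD and 1.16 for WD+7KC. Relative to general endothelial genes the mean of the members was thus higher by 0.15 with 7KC under chow diet and by 0.18 under the western type diet. Without this reference their median changes, a different measure, were 0.43 and 1.52. Single members ranged from -0.755 for Lyve1 to 0.76 for Dnase1l3 under chow diet. Under the western type diet they ranged from -0.52 for Ehd3 to 0.69 for Kdr. The reference includes Erg, whose change was -0.01 under the western type diet beside a list median of 1.41. Relative to the 12 other sinusoidal genes the same quantity was 1.19 for CD, 1.03 for CD+7KC, 0.95 for WD and 0.98 for WD+7KC, so with 7KC it changed by -0.16 under chow diet and by 0.03 under the western type diet. Relative to the stellate markers the same quantity was -0.21 for CD, 0.44 for CD+7KC, -0.66 for WD and 0.80 for WD+7KC. Relative to the Kupffer markers it was -0.59, -0.88, -1.66 and -1.19, and relative to the hepatocyte markers -8.54, -7.84, -8.53 and -6.71 in the same order. The position relative to stellate and hepatocyte markers was hence higher in both libraries with 7KC, while that relative to Kupffer markers was highest in CD.

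Single members differed more against the pan-endothelial genes. Dnase1l3 had log2 ratios of 0.86 for CD, 1.62 for CD+7KC, 1.42 for WD and 1.55 for WD+7KC, so it was lowest in CD. Clec4g had 2.94 for CD, 3.53 for CD+7KC, 3.0 for WD and 3.25 for WD+7KC, higher with 7KC under either diet, and Stab1 likewise with -0.14, 0.24, -0.06 and 0.35. Dnase1l3, Kdr and Oit3 were also higher with 7KC under either diet, Oit3 by only 0.05 under chow diet. The remaining members were not. Lyve1 had 1.53, 0.78, 0.98 and 1.25, with its highest ratio in CD. Kdr had 0.16, 0.35, -0.37 and 0.32, with its lowest in WD. Ehd3 had 1.53, 1.60, 1.92 and 1.39, with its highest in WD, and Pecam1 stayed between 0.91 and 1.10. Cdh5 ranged from 0.53 in WD to 1.01 in WD+7KC, Oit3 from 0.95 in WD to 1.32 in WD+7KC and Stab2 from -0.09 in CD to 0.30 in WD.

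**Figure D4:**
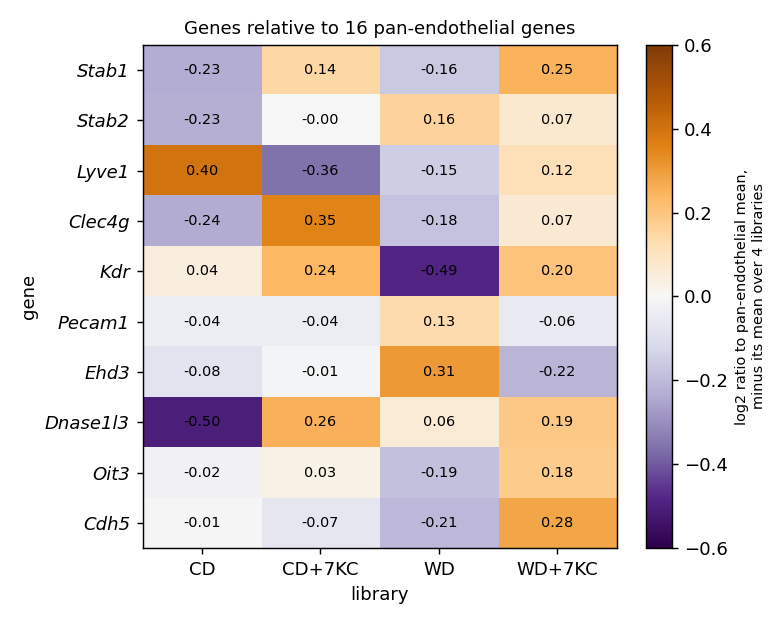
Log2 ratio of each of the 10 genes to the mean of 16 pan-endothelial genes in the same library, minus the mean of that ratio over the 4 libraries (colour and printed value, log2). Pecam1 stays near 0 in all libraries, whereas Dnase1l3 is at -0.50 in CD, Kdr at -0.49 in WD and Lyve1 at 0.40 in CD.

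The genes with the profile closest to the members were sought among 10676 other genes that averaged at least 1 FPKM. Likeness was the Euclidean distance between log2 (FPKM + 0.1) values over the 4 libraries, after the mean of each gene was subtracted. The mean profile of the members was -0.34 for CD, 0.10 for CD+7KC, -0.60 for WD and 0.84 for WD+7KC. The closest gene was Thbd, which encodes the anticoagulant receptor thrombomodulin, at a distance of 0.07, with 1.24 FPKM for CD, 1.72 for CD+7KC, 0.96 for WD and 2.92 for WD+7KC. It was followed by the junction gene Esam at 0.12, the chemokine-binding receptor gene Gpr182 at 0.12, the adhesion receptor gene Adgrl4 at 0.14 and the clotting factor VIII gene F8 at 0.14. Of the members, Oit3 lay closest to their mean at 0.15 and Lyve1 farthest at 0.64. The likeness rests on 4 points per gene, and 272 other genes lay within the distance of Lyve1, and 47 within 0.32, the median distance of the members.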

How the data were processed

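The deposited files hold 1 FPKM value per gene symbol and library, made by the authors from 75-base single-end reads of stranded mRNA libraries. The authors mapped the reads to mm10 with TopHat2 2.0.13, Bowtie2 2.2.3 and SAMtools 0.1.19 and computed the FPKM values with Cufflinks 2.2.1, per the submitters' processing notes. The gene annotation and the Cufflinks options are not given in the sources used here. Samples were grouped by their titles, with 1 library per group.

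From the deposited FPKM, log2 ratios were formed in 4 comparisons after adding 0.1 FPKM to each value, leaving out genes at 0 in both libraries. Genes past a log2 fold change of 1 or -1 were counted, and lists were described by counts and medians beside those of all genes. The member genes and lists were chosen with earlier results of these data known. The text names all members, every gene of the VEGF, hyaluronan, junction and family lists, the extremes of each other list under 7KC among genes with at least 1 FPKM, and the 5 nearest profiles; Mrc1 and Fcgr2b were named after their values were seen. A gene that this rule would name is not reported here. Of 126 list symbols, 125 matched, 2 of them by an older symbol.

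Fragments per library were estimated over 11512 genes that have 1 RefSeq mRNA, from the GENCODE vM21 (GRCm38) transcript length minus 200 bases. Of the low values, 68.6% to 70.8% were within 0.1 of whole reads. Intervals were given for members with 1 RefSeq mRNA whose ends in RefSeq and GENCODE differed by at most 10% of the transcript length. Thus Clec4g, Kdr, Pecam1 and Dnase1l3 had none. Alternatives were pseudocounts of 1, 0.01 and none, equal sums, upper-quartile and median-ratio scaling, a filter of at least 1 FPKM and a threshold of 1.5-fold. The code was tested on simulated data. Python 3.11.15, numpy 2.4.6, pandas 2.3.3, scipy 1.17.1 and matplotlib 3.10.9 were used.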

Additional observations from a re-analysis of the deposited data

Results flagged for a closer look

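Some members had opposite signs under the same contrast in different conditions, with the deposited values and under every scaling; with 1 library per group the differences were not tested. The change with 7KC was -0.46 in CD and 1.53 in WD for Lyve1, a difference of 1.99. The change in WD relative to CD was -0.83 without and 1.16 with 7KC for Lyve1, which is the same difference of 1.99 by arithmetic, since both use the same 4 values. For that contrast Cdh5 had -0.48 and 1.03 (difference 1.51), Kdr -0.81 and 0.65 (1.46), Oit3 -0.44 and 0.84 (1.28), and Stab1 -0.20 and 0.79 (1.0). Pecam1 had -0.11 and 0.67 (0.78) and Clec4g -0.22 and 0.40 (0.62). The counting intervals without 7KC excluded 0 for Lyve1, Cdh5 and Oit3 but included it for Stab1. Kdr, Pecam1 and Clec4g had no interval. The changes of Pecam1 and Clec4g without 7KC were about as small as that of Stab1, so their sign there is not resolved. How many of all genes had opposite signs was not counted.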

How the results depend on the processing

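No paired analysis was possible because each group had 1 library, and for the same reason no library could be left out. The median log2 fold change of the members in WD+7KC relative to WD was 1.39 with a pseudocount of 1, 1.74 with equal sums and 1.62 with upper-quartile scaling. In WD+7KC relative to CD+7KC it was 0.64 with a pseudocount of 1 and 0.92 with equal sums, and the median difference of the 7KC change between diets was 0.78 and 1.07. The members above 1 numbered 0 with a pseudocount of 1 and 3 with a threshold of 1.5-fold in CD+7KC relative to CD. In WD+7KC relative to CD+7KC they numbered 1 with a pseudocount of 1, 4 with equal sums and 8 with a threshold of 1.5-fold. In WD relative to CD, 2 members were lower past 1.5-fold. In WD+7KC relative to WD the members above 1 numbered 7 with a pseudocount of 1, compared to 9 in the main setting, and 10 were past 1.5-fold. The other alternatives moved the counts by no more than 1.5 times. The shares of all genes under these alternative rules are not given here, so the counts describe the members only. No median or single member changed sign under any alternative, and of 144 values of the 6 members with a counting interval 139 stayed within it. Equal sums moved the median of all genes by about 0.21 in WD+7KC relative to WD, and brought it to 0.20 in WD+7KC relative to CD+7KC. Depth left the sign unresolved for Cdh5 in CD+7KC relative to CD and for Stab1, Stab2 and Ehd3 in WD relative to CD.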
